A study of Mus musculus with 12 samples.

Results

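The genes examined were the clustered histone genes and the linker histones, taken as every row of the expression table whose gene name begins with Hist1h to Hist4h, H1f, H2ac, H2bc, H3c or H4c followed, in the newer names, by a digit. The rule found 72 genes among 55385, comprising 11 H1, 20 H2A, 17 H2B, 12 H3 and 12 H4 genes. Of these, 57 lie on chromosome 13, 10 in the cluster on chromosome 3, and 5 linker histone genes on other chromosomes. Those on chromosome 13 lie in the large histone cluster, except for the pseudogene Hist1h2al, which lies far from it (chr13:51202727-51203065). The annotation (gencode vM21, GRCm38) classes 68 as protein-coding and 4 as pseudogenes. A TPM of at least 1 was reached in some library by 53 of them, 19 stayed under 1 in all 12 libraries, and 1 of these (H2ac21) was listed at 0 throughout.

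The 12 RNA-seq libraries form 6 groups of 2, all of spermatogonia sorted from mouse testis by E-Cadherin, CD9 and KIT. WT A_undiff (undifferentiated, KIT-negative) and WT A_diff (differentiating, KIT-positive) came from untreated C57BL/6 mice aged 2 to 3 months. PRC1ctrl (Ring1-/-; Rnf2 F/+; Ddx4-Cre) and PRC1cKO (Ring1-/-; Rnf2 F/-; Ddx4-Cre) A_undiff came from littermates of mixed background (C57BL/6 X FVB/NJ) at 2 mo, either without treatment or after about 30 daily injections of win18446, begun at 1 month of age; this compound blocks the synthesis of retinoic acid, the signal that starts spermatogonial differentiation. Ring1 and Rnf2 encode the catalytic subunits of Polycomb repressive complex 1 (PRC1), which places ubiquitin on histone H2A; Ring1 is absent from the controls too, and the Cre acts in germ cells. The 4 untreated PRC1 libraries were made from about 7000 cells by the Smart-Seq2 method with a low-input kit that does not mark the strand, and the other 8 from 100000 to 150000 cells with the stranded TruSeq mRNA kit after poly(A) enrichment. Among the PRC1 libraries the kit therefore goes with the treatment, and tests are made here within a kit except where said. Per the study's methods each library was made from a pool of sorted cells, and the libraries of a group were independent biological replicates.

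Histones H2A, H2B, H3 and H4 form the core on which DNA is wrapped, and H1 binds the DNA between the cores. Most clustered histone genes are expressed in S phase, when newly copied DNA needs new histones, and their mRNAs are the known exception to polyadenylation: they end shortly after a conserved stem-loop, which is bound by the protein SLBP and cut by a dedicated machinery. Linker histones H1f0 (H1.0) and H1f10 (H1.10) are made independently of replication from polyadenylated mRNA, whereas H1f6 (H1t), H1f7 (H1T2) and H1f8 (H1oo) are known from spermatocytes, spermatids and oocytes, respectively. Both kits depend on a poly(A) tail, so that the values below cover only the part of the histone mRNA that was captured in this way.

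The stem-loop was searched in the annotated transcripts as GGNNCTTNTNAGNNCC with both 6-base arms pairing in full. It was present in 43 of the 72 genes, against 27 of 141683 transcripts of all other genes (0.019%). The sequences of 7 members that recur in the comparisons are shown with the stem-loop in capitals and up to 5 flanking bases on each side, in DNA letters as in the vM21 transcripts.
H2ac11: acaaaGGCTCTTTTCAGAGCCaccta
H2bc11: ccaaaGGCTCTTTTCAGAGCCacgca
H2bc12: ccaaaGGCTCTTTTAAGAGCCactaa
Hist1h2ap: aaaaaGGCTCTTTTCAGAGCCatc
Hist1h4m: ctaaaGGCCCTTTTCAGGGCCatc
H4c2: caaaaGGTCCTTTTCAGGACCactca
H4c9: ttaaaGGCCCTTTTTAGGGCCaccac

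The form carried by H2ac11, H2bc11 and Hist1h2ap was found in 24 members from H1, H2A, H2B and H3, and the other 7 forms in 1 to 6 members each. In 22 members the annotated transcript ended within 60 bases of the stem-loop, for example 23 bases past it in H2ac11 and 3 bases past it in Hist1h2ap. In 21 members the model ran further, by 330 bases in H4c9 and by 840 in H1f2. No match was found in 29 members, of which 17 have models without bases after the stop codon (H1f5, H2ac13 and H2bc1 among them), so that the element could not be seen there. The other 12 include H1f0, H1f10 and H1f8, and in each of these 3 the last 40 bases hold a poly(A) signal (AATAAA or ATTAAA).

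Histone genes are also close copies of each other. In 26 of the 72 members, more than 50% of all 100-base windows occurred without a mismatch in a transcript of another gene, and 12 of the 26 were H2A genes. The share was 92.2% in Hist1h2ap, 92.7% in Hist1h2ao, 87.9% in H2ac12 and 91.7% in the pseudogene H2ac14, against 0.0% in H1f0, H1f10, H1f7 and H1f8. Per the study's methods, reads without a unique place in the genome were removed before downstream analyses, and whether this held for the reads behind the TPM values is not stated. Levels of such copies, and sums over families rich in them, are therefore uncertain.

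**Figure D1:**
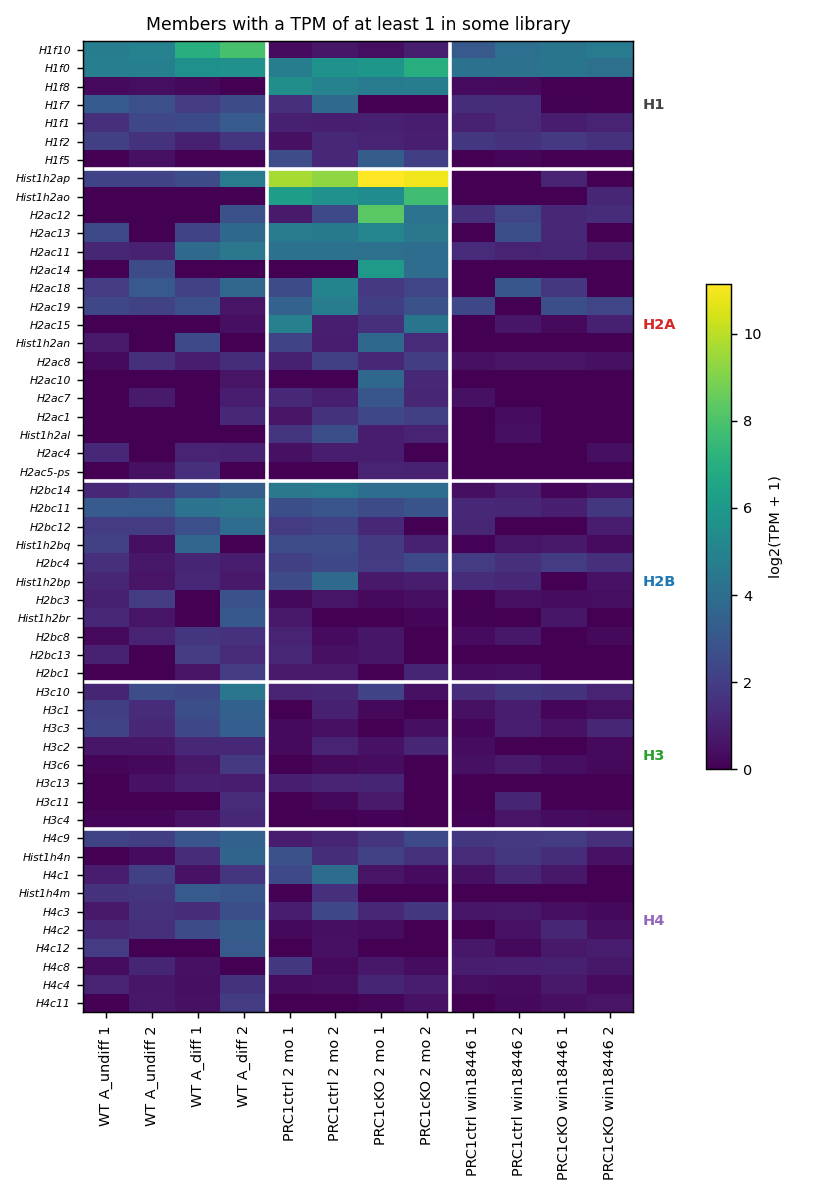
Levels of the 53 members with a TPM of at least 1 in some library, as log2(TPM + 1), with genes in rows by family and the 12 libraries in columns (white lines part the families and the kits). H1f10 and H1f0 stand out in the TruSeq libraries, and Hist1h2ap in the 4 Smart-Seq2 libraries.

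Member transcripts were a small part of every library. They held 0.013% and 0.0141% of all TPM in WT A_undiff, 0.0315% and 0.0553% in WT A_diff, and 0.0059% to 0.00825% in the 4 win18446 libraries. In the Smart-Seq2 libraries they held 0.0985% to 0.292%. In the 8 TruSeq libraries, linker histones gave 47% to 63.2% of the members' TPM, and the 12 genes without a stem-loop but with bases after the stop codon gave 49.2% to 65.4%. In the Smart-Seq2 libraries the H2A family gave 80.8% to 95.2%, and Hist1h2ap alone 64.4% to 78.7%. TPM does not keep read numbers, so the depth and the counting error of these values are unknown.

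The comparison of WT A_diff with WT A_undiff asks which genes change as spermatogonia enter differentiation. Markers followed the sort: 7 of 8 genes of differentiating spermatogonia were called higher and 11 of 12 of undifferentiated spermatogonia lower in A_diff. The summed level of each of the 5 histone families was higher in both A_diff libraries than in both A_undiff libraries. H1 summed to 65.7 and 70 TPM in A_undiff and to 182 and 302 in A_diff. H2A summed to 18.8 and 24.4 against 39.9 and 78.9, and H2B to 22.9 and 20.1 against 49.8 and 66.1. H3 summed to 9.06 and 10.6 against 18.4 and 48.2, and H4 to 13.2 and 15.7 against 25 and 57.6. The ratio of group means lay between 2.69 (H2B) and 3.57 (H1), the latter being 1.51 without H1f10, and A_diff replicate 2 was above replicate 1 in every family. In sorted bulk samples, more cells in S phase and more histone mRNA per cell cannot be told apart.

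**Figure D2:**
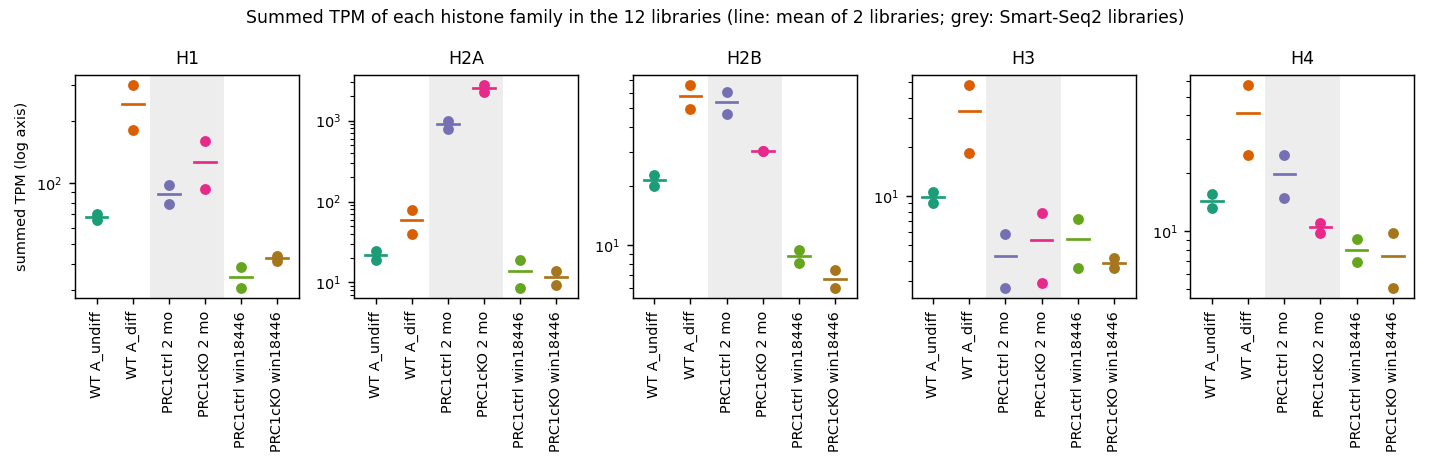
Summed TPM (log axis) of the H1, H2A, H2B, H3 and H4 members in each library, with points for single libraries, lines for the mean of 2 and grey shading for the Smart-Seq2 kit. In WT, both A_diff points lie above both A_undiff points in all 5 families; at 2 mo the H2A sum is higher and the H2B and H4 sums are lower under PRC1cKO than under PRC1ctrl.

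Of the 72 members, 34 passed the filter of a TPM of at least 1 in 2 of the 4 libraries and were tested with limma on log2(TPM + 1). A gene was called where limma's adjusted p fell below 0.05 and the log2 fold change lay beyond 1 in either direction, and 10 members were called higher in A_diff, where 11.1% of the 15470 genes tested were called higher. None was called lower, where 9.24% of all genes were. At an unadjusted p under 0.05 the limma counts were 14 higher and 0 lower, beside 4680 and 2913 of all 15470 genes. The median log2 fold change was 0.90 over the 34 members and 0.15 over all genes tested. It was above 0 in 28 of the 34 members and in 8986 of all 15470 genes. Of the 34, Hist1h4n and H3c2 passed the filter through A_diff alone. The number called was 4 without A_undiff replicate 1, 5 without A_undiff replicate 2, 16 without A_diff replicate 1 and 7 without A_diff replicate 2, and it was 6 after median-of-ratios scaling, which takes the 0.15 median shift of all genes out.

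**Figure D3:**
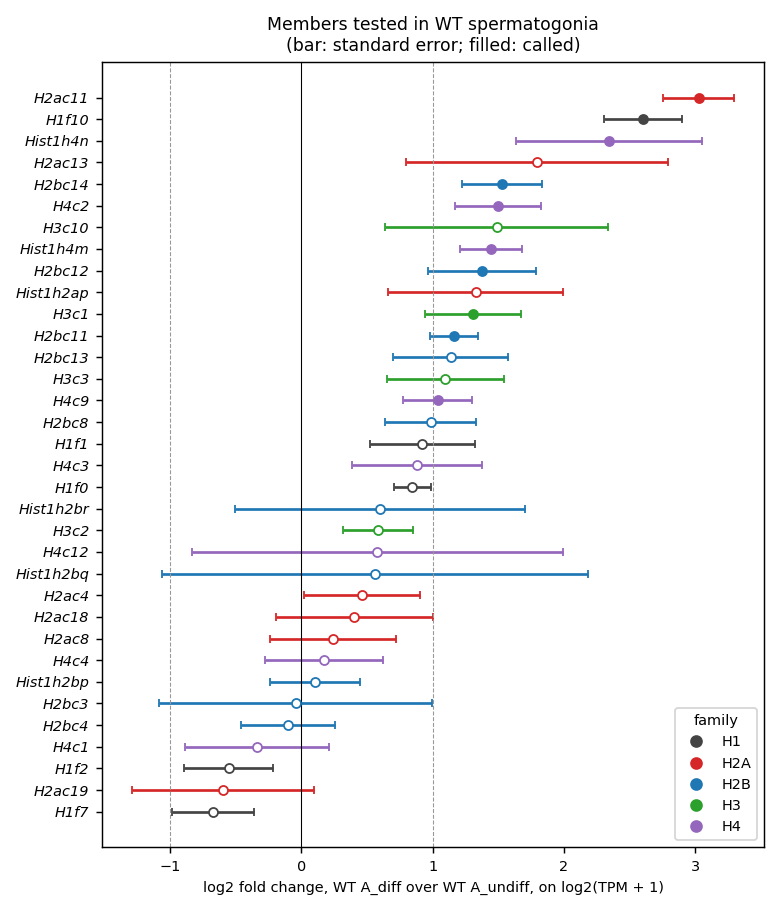
Log2 fold change of the 34 tested members in WT A_diff over WT A_undiff on log2(TPM + 1), with the standard error as bars, colours for families, filled points for called members and dashed lines at a log2 value of 1 in each direction. The 10 filled points lie between 1.04 (H4c9) and 3.02 (H2ac11), with members of all 5 families among them.

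Linker histones gave the highest levels of all members in WT. H1f10 (chr6), the replication-independent H1.10, was at 25.7 and 29.7 TPM in A_undiff and at 125 and 238 in A_diff. Both A_diff libraries were thus several-fold above both A_undiff libraries, though they differed widely from each other. The log2 fold change was 2.60 ± 0.30 (SE; limma, adjusted p = 0.0026), and the call was kept in all 8 alternative analyses. H1f10 made up 39.1% and 42.4% of H1 TPM in A_undiff and 68.8% and 78.6% in A_diff. Its exons overlap an antisense transcript (Gm5577) that stayed between 1.29 and 3.59 TPM in the same 4 libraries, which were made with strand.

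H1f0, the histone H1.0 of slowly dividing and differentiated cells, was at 26 and 27.1 TPM in A_undiff and at 47.9 and 48.8 in A_diff. The groups did not overlap and the replicates were close, with a log2 fold change of 0.84 ± 0.14 (adjusted p = 0.0066), below the fold needed for a call. H1f1, an S-phase linker histone of the cluster, was at 1.79 and 4.21 against 4.6 and 8.32 TPM (adjusted p = 0.11). H1f7 went the other way, from 8.39 and 5.57 to 3 and 5.08 TPM, without passing the test (log2 fold change -0.67 ± 0.31, adjusted p = 0.13). The summed level of 12 spermatid markers was 986 and 1056 TPM in A_undiff and 740 and 915 in A_diff, and its part in the H1f7 values was not tested. H1f2, another linker histone of the cluster, lay between 0.99 and 3.35 TPM in the 4 libraries, with overlapping groups. The remaining H1 genes were at or under 0.43 TPM in WT.

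**Figure D4:**
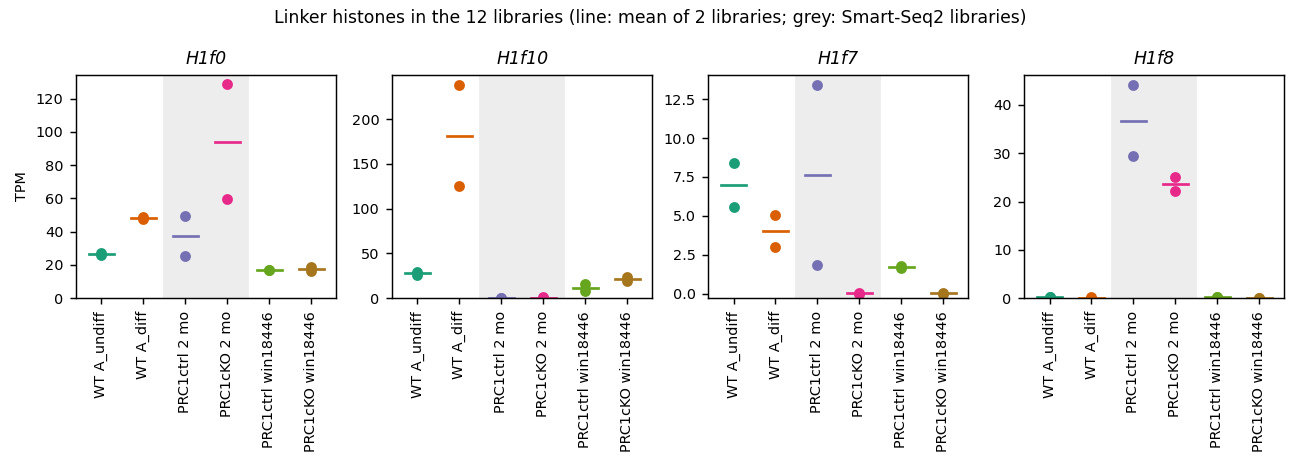
TPM of H1f0, H1f10, H1f7 and H1f8 in each library, with points for single libraries, lines for the mean of 2 and grey shading for the Smart-Seq2 kit. H1f10 reaches 125 and 238 TPM in WT A_diff and stays at or under 0.92 in all Smart-Seq2 libraries, where H1f8 is between 22.1 and 44.1; H1f7 is at or under 0.04 in the 4 libraries labelled PRC1cKO.

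The largest log2 fold change among the members tested belonged to H2ac11, a replication-dependent H2A gene of the chromosome 13 cluster. It was at 1.27 and 1.01 TPM in A_undiff and at 13.3 and 20.1 in A_diff. The groups were far apart relative to their spread (log2 fold change 3.02 ± 0.27, adjusted p = 0.0013). H2bc11, the H2B gene that starts 269 bases away and is transcribed in the opposite direction, was at 8.13 and 7.89 against 18.1 and 20.3 TPM. Its log2 fold change was 1.16 ± 0.18 (adjusted p = 0.0054). The calls of H2ac11 and H2bc11 were kept in all 8 alternative analyses, as was that of H1f10, and those of the other 7 called members were not. H2ac11 shares 76.2% and H2bc11 40.1% of its 100-base windows with other genes.

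The table holds 14 such divergent H2A-H2B pairs with at most 400 bases between their starts, and 4 of them had both genes tested in WT. All 8 genes of these pairs had a log2 fold change above 0, and H2ac11-H2bc11 was the pair in which both passed the test. Promoter windows (RefSeq, GRCm38.p6, 250 bases before to 50 after the start) were found for 63 members. They were searched on both strands for 4 motifs. The CCAAT box, spelled as its name, was present in 82.5% of member promoters and 37.39% of all 32817 promoters. The TATA box (searched as TATAAA) was present in 54% and 13.62%. The octamer known from H2B promoters (searched as ATTTGCAT) was present in 19% and 1.74%. The H1 box (searched as AAACACA) was present in 14.3% and 7.19%. The CCAAT box occurred in all 17 H2A, 15 H2B and 10 H3 windows, but in 3 of 11 H4 windows, and the octamer in H2A and H2B windows only (6 each). Windows of divergent genes can overlap, so that a site can be counted for both genes of a pair. This was so for the octamers of H2ac1-H2bc1, H2ac8-H2bc8 and H2ac12-H2bc12. Among members with a window, the CCAAT box was found in 4 of 9 called and in 20 of 23 tested but not called in WT. The called members without it were H1f10 and the H4 genes Hist1h4m, H4c2, H4c9 and Hist1h4n. Family and call can therefore not be told apart in these counts. The windows of H2ac11, H2bc14 and H1f10, members of 3 families called in A_diff, are shown 5' to 3' with matches in capitals; that of H2ac11 (chr13:22042900-22043199, minus strand) overlaps the window of H2bc11, that of H2bc14 lies at chr13:21721794-21722093 (plus strand) and that of H1f10 at chr6:87981433-87981732 (minus strand).
H2ac11: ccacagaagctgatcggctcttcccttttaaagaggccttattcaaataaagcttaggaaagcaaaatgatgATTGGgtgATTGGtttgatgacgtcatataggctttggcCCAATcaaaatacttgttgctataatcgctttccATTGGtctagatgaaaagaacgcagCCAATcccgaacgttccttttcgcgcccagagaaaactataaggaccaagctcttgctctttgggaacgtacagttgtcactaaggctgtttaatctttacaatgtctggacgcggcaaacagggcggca
H2bc14: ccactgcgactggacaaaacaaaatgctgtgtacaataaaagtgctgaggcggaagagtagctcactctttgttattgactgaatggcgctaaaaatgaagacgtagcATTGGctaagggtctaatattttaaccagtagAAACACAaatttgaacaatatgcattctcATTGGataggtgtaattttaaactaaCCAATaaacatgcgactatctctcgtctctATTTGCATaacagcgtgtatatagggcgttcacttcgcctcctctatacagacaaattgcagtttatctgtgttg
H1f10: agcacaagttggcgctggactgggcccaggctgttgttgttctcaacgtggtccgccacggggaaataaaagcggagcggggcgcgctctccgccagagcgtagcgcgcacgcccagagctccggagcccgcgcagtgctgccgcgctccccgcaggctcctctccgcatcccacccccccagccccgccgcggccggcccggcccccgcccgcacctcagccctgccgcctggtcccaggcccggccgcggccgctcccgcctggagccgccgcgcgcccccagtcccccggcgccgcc

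The H2ac11 window held 5 CCAAT box matches, spread over the stretch between the divergent genes. The H2bc14 window held 3, with 1 octamer and 1 H1 box match, and that of H1f10 held none of the 4 motifs.

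The H2B genes H2bc14 and H2bc12 were also called. H2bc14 was at 1.39 and 2.17 TPM in A_undiff and at 5.47 and 8.72 in A_diff (log2 fold change 1.53 ± 0.31, adjusted p = 0.012). H2bc12 was at 2.91 and 2.96 against 5.64 and 14.7 TPM (1.38 ± 0.41, adjusted p = 0.041). In H2bc12 the group difference rests largely on A_diff replicate 2, without which the log2 fold change was 0.75 (adjusted p = 0.099). H2bc1, the testis-specific H2B, and H2ac1, the testis-specific H2A, are known from the exchange of histones in later germ cells. Both were listed at 0 in both A_undiff libraries and reached at most 2.83 TPM in A_diff, and neither was tested.

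The called H3 gene was H3c1, an S-phase H3 gene, with 3.21 and 1.69 TPM in A_undiff and 5.34 and 9.95 in A_diff (log2 fold change 1.31 ± 0.36, adjusted p = 0.033). Of the 8 H4 genes tested, 4 were called. Hist1h4m was at 2.11 and 2.17 TPM against 8.3 and 6.83 (1.44 ± 0.24, adjusted p = 0.0062). H4c2 was at 1.44 and 1.94 against 4.8 and 8.84 TPM (1.50 ± 0.33, adjusted p = 0.015). H4c9, next to H2ac11 in the cluster, was at 3.9 and 3.25 against 6.89 and 10.1 TPM (1.04 ± 0.26, adjusted p = 0.024). Hist1h4n was listed at 0 and 0.27 TPM in A_undiff against 1.69 and 11.2 in A_diff, and its adjusted p of 0.048 (limma) lay just under the threshold. It passed the filter through A_diff alone. All H4 genes encode the same protein, and groups did not overlap in any of these 4. Hist1h4m and Hist1h4n share 88.1% and 80.7% of their windows with other genes, mostly with each other. The calls of H3c1, H4c9, H2bc12 and Hist1h4n were lost on leaving out either A_undiff library or A_diff replicate 2. They were also lost without the filter and after median-of-ratios scaling. The call of H4c2 was lost on leaving out either A_undiff library, and those of Hist1h4m and H2bc14 on leaving out A_undiff replicate 1.

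Of the 10 called members, 9 have the stem-loop in their annotated transcript and 8 of these end within 60 bases of it, H1f10 being the member without it. Among the 24 tested but not called, 14 have the stem-loop and 7 end within 60 bases of it. Another 5 members (Hist1h2ap, H2ac13, H2bc13, H3c3 and H3c10) had a log2 fold change above 1 without passing the test, with adjusted p of 0.085 to 0.23; all but the first 2 were named after their values were seen. Hist1h2ap was at 3.69 and 3.73 TPM in A_undiff and at 4.9 and 22.7 in A_diff, so that its difference rests on A_diff replicate 2.

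Other genes of histone supply and DNA replication were examined as lists. Of 23 S-phase genes, 12 were called higher and 0 lower in A_diff (limma), where 11.1% and 9.24% of all genes tested were. Their median log2 fold change was 1.01 beside 0.15 for all genes tested. Among them, and also in the list of 3' end processing, Slbp, which encodes the stem-loop binding protein, was at 98.2 and 100 TPM in A_undiff and at 231 and 207 in A_diff (log2 fold change 1.13 ± 0.12, adjusted p = 0.0020). Mki67, a proliferation marker, was at 7.02 and 6.73 against 39.2 and 29.5 TPM (2.15 ± 0.20, adjusted p = 0.0014). Of 20 genes of histone mRNA 3' end processing and transcription, 2 were called higher (Slbp and Cpsf2), where 11.1% of all genes were. Their median was 0.41. Of 19 histone chaperone genes, 3 were called higher, beside the same 11.1%, with a median of 0.45. The called chaperone genes were Chaf1a, a subunit of the assembly factor CAF-1, Nasp, which holds soluble H3-H4, and Rbbp4. Of 6 genes of poly(A) polymerases and tail-binding proteins none was called, and their median was 0.17. At an unadjusted p under 0.05 (limma) 2 were higher and 2 lower, beside 4680 and 2913 of all 15470 genes.

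A list of histone genes outside the rule, mostly replication-independent variants, moved in both directions. Of this list, H2afx, Hist3h2a, Hist3h2ba and Hist4h4 carry the stem-loop in vM21. Of 11 tested, 3 were called higher and 2 lower in A_diff, where 11.1% and 9.24% of all genes were. H3f3b, which encodes the variant H3.3, was at 415 and 419 against 888 and 856 TPM (log2 fold change 1.06 ± 0.10, adjusted p = 0.0016). The other genes called higher were H2aj and H3f4. Macroh2a1 and Macroh2a2, which encode macroH2A, fell, Macroh2a2 from 62.9 and 68.7 to 7.32 and 8.86 TPM (-2.88 ± 0.17, adjusted p = 6.2e-04). H3f3b alone was thus above the summed level of the 12 clustered H3 genes in each WT library.

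The comparisons of PRC1cKO with PRC1ctrl ask which genes respond to the loss of PRC1 in A_undiff. Ring1 was at or under 0.25 TPM in all 8 PRC1 libraries. Rnf2, which by design loses both copies under PRC1cKO and keeps an intact copy under PRC1ctrl, was at 28.3 and 47.6 TPM in PRC1ctrl and 56.7 and 67.5 in PRC1cKO at 2 mo, and at 78.1 and 67.2 against 86.2 and 93.1 after win18446. Its TPM was not lower under PRC1cKO, but a TPM over the whole gene does not show whether part of the gene was removed. The paper states, from earlier work, that germ cells of PRC1cKO mice almost completely lack the PRC1 mark on H2A. The libraries are named by their labels. Markers of other cells moved with the label. At 2 mo, 12 spermatid markers summed to 884 and 2131 TPM in PRC1ctrl and to 88.6 and 89.9 in PRC1cKO, with 6 of the 10 tested called lower and Prm1 and Tnp2 under 1 in PRC1cKO. Macrophage markers summed to 10.3 and 119 against 140 and 705 TPM, most of it Cd74 (8.18 and 112 against 127 and 680), while Csf1r, Adgre1 and C1qa stayed under 1. Leydig markers summed to 1.04 and 1.21 against 21 and 48 TPM, while Sertoli (22.6 to 56.4), spermatocyte (649 to 825) and peritubular myoid markers (0.88 to 3.78) overlapped between the groups in their sums. Among the 10 spermatocyte markers, however, Ldhc (26.7 and 105 against 1.67 and 0.9) and Pgk2 (30.1 and 129 against 0.12 and 1.06) were called lower. Markers of differentiating spermatogonia summed to 248 and 275 against 602 and 710 TPM, and those of undifferentiated spermatogonia to 956 and 1228 against 454 and 533. Of the 8 differentiating markers 0 were called, and of the 12 undifferentiated markers 1 was called lower. Their median log2 fold changes were 1.61 and -0.27, beside 0.22 for all genes. The part of these cells in the values below was not tested.

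At 2 mo the families moved in different directions. H2A summed to 999 and 796 TPM in PRC1ctrl and to 2781 and 2268 in PRC1cKO, a ratio of means of 2.81. H2B summed to 46.9 and 60.8 against 30.1 and 30.1, and H4 to 15 and 24.8 against 9.86 and 11.1, so that both were lower in both libraries labelled PRC1cKO. H1 (78.4 and 97.3 against 93.5 and 160) and H3 (2.72 and 5.82 against 7.82 and 2.94) overlapped. Without Hist1h2ap, the H2A sums were 168 and 162 against 517 and 323, a ratio of 2.54. Most of this remainder in PRC1cKO was H2ac12 in replicate 1 (315 TPM) and Hist1h2ao in replicate 2 (214 TPM). The higher sums without Hist1h2ap thus rest largely on a different gene in each library.

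Of the 34 members tested at 2 mo, 2 were called higher, where 0.222% of the 13953 genes tested were. None was called lower, where 1.94% of all genes were. At an unadjusted p under 0.05 the limma counts were 5 higher and 6 lower, beside 835 and 1150 of all 13953 genes. Those counted higher include H2ac14, H2ac10 and H2ac5-ps, which passed the filter through PRC1cKO alone. Those counted lower include H1f7, Hist1h2bp and H4c1, which passed it through PRC1ctrl alone. The median log2 fold change was 0.07 over the members and 0.23 over all genes. After median-of-ratios scaling, 1 was called higher and 4 lower. Both called members were H2A genes. Hist1h2ap, a replication-dependent H2A gene, was at 831 and 634 TPM in PRC1ctrl and at 2264 and 1945 in PRC1cKO, with groups well apart (log2 fold change 1.53 ± 0.22, adjusted p = 0.042). The call was lost on leaving out any of the 4 libraries (adjusted p of 0.11 to 0.27) and after median-of-ratios scaling (1.21, adjusted p = 0.26).

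The second, H2ac14, is an unprocessed pseudogene that shares 91.7% of its windows with other members. It was listed at 0 in both PRC1ctrl libraries and at 61.7 and 14.8 TPM in PRC1cKO (adjusted p = 0.042), and passed the filter through the latter alone. The call was kept on leaving out PRC1cKO replicate 2 and lost on leaving out any of the other 3 libraries. Its fitted fold depends on the pseudocount, since the reference is at 0.

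**Figure D5:**
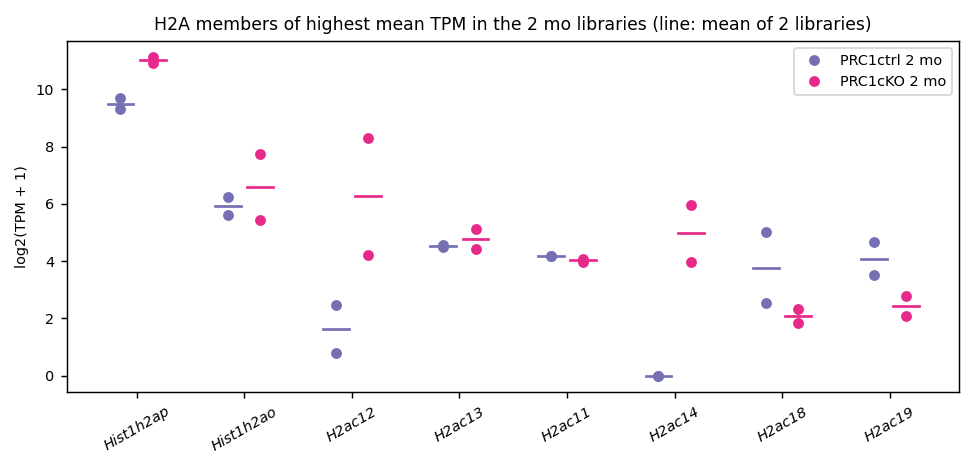
Log2(TPM + 1) in the 2 mo libraries of the 8 H2A members of highest mean TPM over all 12 libraries, with points for single libraries and lines for the mean of 2. Hist1h2ap and H2ac14 are higher in both PRC1cKO libraries, H2ac18 and H2ac19 are lower in both, and H2ac12 and Hist1h2ao are spread widely between the 2 libraries labelled PRC1cKO.

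Several of the other H2A genes were uneven between replicates. H2ac12 was at 0.73 and 4.54 TPM in PRC1ctrl and at 315 and 17.7 in PRC1cKO (adjusted p = 0.20). Hist1h2ao was at 74.7 and 48.2 against 42.2 and 214 TPM. In both genes the libraries labelled PRC1cKO lay far apart. H2ac11, by contrast, was at 17.3 and 17.2 against 16.1 and 14.7 TPM, and H2ac13 at 22.5 and 21.6 against 34.2 and 20.5. The H2A coding regions also lie opposite short predicted miRNA genes, and this kit does not mark the strand. Gm44466, over Hist1h2ap, was at 33.1 and 42.7 TPM in PRC1ctrl and at 79.8 and 110 in PRC1cKO, and Gm19658, over Hist1h2ao, at 12.9 and 32.4 against 299 and 181. Reads of these features and of the H2A genes cannot be told apart here.

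Among linker histones at 2 mo, H1f0 was at 25.5 and 49.7 TPM in PRC1ctrl and at 59.6 and 129 in PRC1cKO. The groups did not overlap, and the test was not passed (log2 fold change 1.28 ± 0.52, adjusted p = 0.35). H1f8, the oocyte linker histone, was at 44.1 and 29.4 against 22.1 and 25.2 TPM (adjusted p = 0.54). H1f5, an S-phase linker histone, was at 5.13 and 1.45 against 8.63 and 3.23 TPM. H1f7 was at 1.84 and 13.4 TPM in PRC1ctrl, and at 0.02 and 0 in PRC1cKO (-2.66 ± 0.79, adjusted p = 0.20). The library with the higher H1f7 value is also the one with 2131 TPM of spermatid markers.

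The same library, PRC1ctrl replicate 2, held the highest values of several further members. H2ac18 was at 4.82 and 31.3 TPM against 2.6 and 4.01, and H2ac19 at 10.3 and 24.3 against 3.21 and 5.83, without passing the test (adjusted p = 0.46 and 0.26). Hist1h2bp was at 5.02 and 13.6 against 0.68 and 0.83 TPM (adjusted p = 0.11). H4c1, singled out after its values were seen, was at 4.57 and 14.3 against 0.52 and 0.25 TPM (adjusted p = 0.098). H1f7, H2ac19, Hist1h2bp and H4c1 are the 4 members called lower after median-of-ratios scaling. Spermatid markers moved in the same direction in the same libraries, and their part was not tested. H2bc14, the H2B gene of highest mean level, was at 20.1 and 24.2 against 15.1 and 15.1 TPM (adjusted p = 0.58). H2bc11 and H2bc12 were at 5.47 and 6.71 against 5.01 and 6.36 and at 2.84 and 3.5 against 1.43 and 0 TPM, and all 6 H2B genes tested had a log2 fold change below 0. The 16 H2A genes tested had a median log2 fold change of 0.82, beside -0.16 for the 18 other members. Of the H2A genes, H2ac14, H2ac10 and H2ac5-ps passed the filter through PRC1cKO alone. Of the others, H1f7, Hist1h2bp and H4c1 passed it through PRC1ctrl alone. The sign of these values came with the filter, and the medians include them. H4c9 was at 0.84 and 1.24 against 2.26 and 4.45 TPM, the reverse order to the H4 sum (adjusted p = 0.37). Of the testis-specific genes, H2ac1 was at 0.52 and 2.1 against 4.14 and 3.3 TPM (adjusted p = 0.40), and H2bc1 stayed at or under 1.25 and was not tested. No divergent pair, of 5 with both genes tested, had both log2 fold changes above 0.

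The lists gave no call on S phase or histone supply at 2 mo. Of 23 S-phase genes 0 were called (limma; 10 higher and 0 lower at an unadjusted p under 0.05), though their median log2 fold change was 1.01 beside 0.22 for all genes, and they summed to 1267 and 1597 TPM in PRC1ctrl against 2414 and 2742 in PRC1cKO. The medians were 0.40 for 3' end processing, 0.39 for chaperones, 0.13 for poly(A) genes and 0.15 for histone variants, with 0 calls in each. At an unadjusted p under 0.05 these 4 lists had 1, 3, 0 and 3 genes higher and 0, 1, 0 and 0 lower (limma). Of all 13953 genes tested, 835 were higher and 1150 lower at this threshold.

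After win18446 the member levels were low and differed little between the labels. All members together summed to 59 and 82.5 TPM in PRC1ctrl and to 75.3 and 69.3 in PRC1cKO. The H1 sums were 30.5 and 38.8 against 41.6 and 43.8, but 22.8 and 23 against 22.6 and 19.6 without H1f10, and those of H2B were 9.45 and 8.05 against 6.02 and 7.43; neither family overlapped between the labels, though the order for H1 turns without H1f10, whereas H2A, H3 and H4 did. Of the 16 members tested, 0 were called higher, where 1.27% of the 16521 genes tested were, and 2 were called lower, where 10.9% of all genes were. At an unadjusted p under 0.05 the limma counts were 1 higher and 2 lower, beside 1627 and 5690 of all 16521 genes. The median log2 fold change was -0.22 over the members and -0.19 over all genes.

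H1f7, the linker histone of elongating spermatids, was at 1.74 and 1.65 TPM in PRC1ctrl and at 0.04 and 0 in PRC1cKO. This difference was larger than the replicate spread (log2 fold change -1.40 ± 0.17 on log2(TPM + 1), adjusted p = 0.0028), and the call was kept in all 8 alternative analyses. Spermatid markers summed to 207 and 195 TPM against 64.7 and 73, with 7 of 10 called lower and Prm2 at 0 in both PRC1cKO libraries, and their part was not tested. Hist1h2bp was at 1.7 and 1.41 against 0 and 0.45 TPM (-1.08 ± 0.23, adjusted p = 0.013). Its call was lost on leaving out PRC1ctrl replicate 1 or PRC1cKO replicate 1, and without the filter. After median-of-ratios scaling it was lost narrowly (limma, -0.99, adjusted p = 0.024). H1f7 and Hist1h2bp both passed the filter through PRC1ctrl alone, the group in which they were higher.

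The 2 highest linker histones showed no call after win18446. H1f10 was at 7.69 and 15.8 TPM in PRC1ctrl and at 19.1 and 24.2 in PRC1cKO, higher in both libraries (log2 fold change 0.89 ± 0.34, adjusted p = 0.11). H1f0 was at 16.7 and 17.1 against 19 and 16.1 TPM. H2ac11 and H2bc11, the divergent pair that rose in WT A_diff, were at 0.76 to 1.51 and at 0.89 to 2.55 TPM in the 4 libraries, with overlapping groups. Of the S-phase genes 1 of 23 was called higher (Rrm2, a subunit of ribonucleotide reductase), where 1.27% of all genes were. Their median was 0.25 beside -0.19 for all genes. In the 3' end processing list (20 tested) Casp8ap2 and Tut7 were called lower, and in the chaperone list (19 tested) Cabin1 and Atrx. Both counts are near the 10.9% of all genes called lower. The medians were -0.08 and -0.32. The poly(A) and variant lists had 0 calls, with medians of -0.34 and 0.18. At an unadjusted p under 0.05 (limma) they had 0 and 3 genes higher and 4 and 2 lower. Of all 16521 genes tested, 1627 were higher and 5690 lower at this threshold. Markers of differentiating spermatogonia summed to 657 and 722 against 843 and 921 TPM, and those of undifferentiated spermatogonia to 943 and 1049 against 723 and 826. Of the 8 differentiating markers 3 were called higher, and of the 12 undifferentiated markers 1 was called lower. Their median log2 fold changes were 0.67 and -0.21, beside -0.19 for all genes. Markers of macrophages summed to 59.9 and 40.5 against 139 and 89.5 TPM. Most of the macrophage sum in PRC1cKO was Cd74 (19.6 and 15.7 against 115 and 70.4), which was called higher, while the other 5 macrophage genes tested had log2 fold changes of -0.58 to -0.13. Leydig markers summed to 397 and 82.1 against 73.2 and 20.6 TPM, and 3 of the 10 spermatocyte markers (Sycp2, Spo11 and Pgk2) were called lower. Their part in these values was not tested.

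The difference between the labels was set against the treatment in a single model over the 8 PRC1 libraries. Of 36 members tested, 0 had a higher difference after win18446, where 2.76% of the 18354 genes did, and 2 had a lower one, where 4.98% of all genes did. At an unadjusted p under 0.05 the limma counts were 3 and 6, beside 1156 and 3385 of all 18354 genes. The 2 members were the H2A pseudogenes H2ac14 (adjusted p = 0.019) and H2ac5-ps (adjusted p = 0.022), both listed at 0 in the 4 win18446 libraries and in PRC1ctrl at 2 mo. They passed the filter through PRC1cKO at 2 mo alone, so that this result restates their 2 mo difference and says nothing of the treatment. Kit and treatment cannot be told apart in this model. Hist1h2ap was at 0 to 1.18 TPM after win18446 in both labels.

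Set side by side without a test, the kits recorded different members. Some members were higher in all 4 Smart-Seq2 libraries than in all 8 TruSeq libraries, a few of them near the floor (H3c14 at 0.1 to 0.4 TPM against 0). The share of all genes that separate in this way was not computed. Whether histone genes differ from other genes in this is therefore unknown. Members whose annotated transcript ends within 60 bases of the stem-loop held 80.9% to 89.4% of member TPM with Smart-Seq2, against 18.9% to 30.3% with TruSeq. Most of this was Hist1h2ap, which alone gave 64.4% to 78.7% of member TPM with Smart-Seq2. The contrast therefore rests largely on that gene and is not shown for the class without it. Hist1h2ap was at 634 to 2264 TPM against 0 to 22.7, Hist1h2ao at 42.2 to 214 against 0 to 1.31, and H1f8 at 22.1 to 44.1 against 0 to 0.34. H2ac13 was at 20.5 to 34.2 against 0 to 12.2 and H2bc14 at 15.1 to 24.2 against 0.13 to 8.72. H1f10 was the member with the opposite order, at 0.25 to 0.92 TPM with Smart-Seq2 and 7.69 to 238 with TruSeq. The members were picked for their order against all 8 TruSeq libraries, so it holds by choice against the WT and the win18446 libraries alike. The WT libraries also differ from the Smart-Seq2 libraries in strain and genotype. The win18446 libraries share the mixed background with them but differ in treatment. The kit cannot be told apart from these differences or from the number of cells.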

How the data were processed

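RNA-seq was analysed for 12 libraries in 6 groups of 2. The authors deposited a table of TPM for 55385 genes, computed with RSEM 1.3.3; per the study's methods reads were trimmed with Trim Galore 0.6.6 and aligned to GRCm38 with HISAT2 2.2.1, and reads without a unique place or of low mapping quality were removed with SAMtools 1.9 before downstream analyses. Whether RSEM was given these filtered reads, and with which annotation, is not given in the sources used here. Since TPM does not keep read numbers, depth and counting error are unknown, and the precision rests on 2 libraries a group.

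Genes that reached 1 TPM in 2 or more of the 4 libraries of a comparison were tested on log2(TPM + 1) with limma 3.58.1 in R 4.3.3 (two-sided, trend and robust moderation, no block). P-values were adjusted by Benjamini-Hochberg over all genes tested. A term for label and treatment was fitted over 8 libraries (the same minimum in 2 of 8). The fold changes are on the log2(TPM + 1) scale, which understates the change of low genes. The procedure was tested on simulated data.

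Named were all H1 genes, H2ac1, H2bc1, the 10 other members of highest mean TPM, up to 10 called members per direction and comparison, and genes of the lists. Members and lists were chosen with earlier results of these data known. Lists are described by counts and medians. Member identifiers and coordinates matched gencode vM21 in all 72 cases, and promoters are those of RefSeq on GRCm38.p6. Alternatives were a pseudocount of 0.1, no filter, median-of-ratios scaling, the replicate number as a block, and leaving out each library. Tables were prepared with Python 3.11.15.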

Additional observations from a re-analysis of the deposited data

Results flagged for a closer look

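In a model over the 8 PRC1 libraries, the term for a difference between 2 mo and win18446 in PRC1cKO against PRC1ctrl passed the test for 2 members, both H2A pseudogenes. For H2ac14 the difference of the fitted log2 values (win18446 minus 2 mo) was -4.97 (limma, adjusted p = 0.019), from 0 and 0 TPM in PRC1ctrl, 61.7 and 14.8 in PRC1cKO at 2 mo, and 0 in the 4 win18446 libraries. For H2ac5-ps it was -1.035 (adjusted p = 0.022), from 0 and 0 TPM in PRC1ctrl, 1.09 and 1.01 in PRC1cKO, and again 0 after win18446. Both genes passed the filter through PRC1cKO at 2 mo alone, so these values are their 2 mo differences with the sign turned and say nothing of the treatment. They depend on the pseudocount and are no bound on a fold, since the reference libraries are at 0. H2ac5-ps shares 42.6% of its 100-base windows with other members, and H2ac14 shares 91.7%. Kit and treatment cannot be told apart in this comparison. Groups of 2 libraries were not examined for outlying libraries.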

How the results depend on the processing

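In WT, the number of members called higher in A_diff was 10 with a pseudocount of 0.1 and 6 without the filter or after median-of-ratios scaling, and 4 to 16 on leaving out single libraries, where 0 to 1 were called lower. At 2 mo, 1 was called higher and 4 lower after median-of-ratios scaling, 0 higher without the filter (limma; 5 higher and 4 lower at an unadjusted p under 0.05), and 0 to 2 higher and 0 lower on leaving out single libraries. After win18446, 1 was called lower without the filter or after median-of-ratios scaling, and 1 to 2 lower and 0 to 1 higher on leaving out single libraries. A lone library was assumed to vary like the other group. Fewer genes with low values are tested under the filter; for the other changes the cause was not tested. Scaling moved the median of all genes from 0.15 to 0.00 in WT, from 0.23 to -0.03 at 2 mo and from -0.19 to 0.03 after win18446.

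Same-numbered libraries share only a number in the labels; the correlation of their deviations was 0.158 in WT, 0.381 at 2 mo and 0.122 after win18446. With the replicate block, 11 members were called higher in WT, 5 higher and 8 lower at 2 mo, and 2 lower after win18446, and 2 lower in the model over 8 libraries. H3c1 was not called in WT with the block, and H1f0 was called higher at 2 mo with it (adjusted p = 7.8e-04).

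The log2 ratio of the H1 sum in WT was 1.84, and 0.60 without H1f10. After win18446 it was 0.30, and -0.12 without H1f10. At 2 mo, scaling moved the log2 ratio of the H2A sum from 1.49 to 1.17 and that of H2B from -0.84 to -1.13.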
